A study of Mus musculus with 16 samples.

Results

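Collagen chains are the genes of this report, taken as every entry of the expression table with a numeric gene identifier whose symbol reads Col, a number, the letter a and a number. The rule found 44 genes among 20101. Values are FPKM, read fragments scaled to transcript length and to library size, from RNA-seq of eWAT, the white fat depot next to the epididymis, taken from mice aged 21 weeks. There were 16 libraries in 4 groups of 4: WT on chow with 5% fat, KO on chow, WT on a high-fat diet (HFD) with 60% fat, and KO on HFD, where the HFD was fed from 5 weeks of age. The titles say KO and the genotype field says ApoA4 knockdown. The gene is Apoa4, which encodes the lipid-carrying plasma protein apolipoprotein A-IV, and the sources used here do not say how the line was made. Apoa4 RNA went against that name, at 1.96 to 9.63 FPKM in the 8 libraries labelled KO and 0 to 0.29 FPKM in the 8 labelled WT, so the genotypes are called WT-labelled and KO-labelled below.

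Collagens are proteins of 3 chains wound into a helix. Fibrillar chains (types I, III and V) assemble into the load-bearing fibres of connective tissue, type IV chains form the sheet-like network of the basement membrane that wraps each fat cell and each vessel, and type VI chains form beaded filaments that lie between the fibres and the cell surface. In white fat, stromal cells are the usual source of fibrillar collagen, fat cells and endothelial cells make type IV, and loss of collagen VI is known to loosen the matrix of obese fat. By class, the 44 genes were 11 fibrillar, 6 basement membrane, 6 collagen VI, 9 fibril-associated, 2 multiplexin, 3 short-chain network, 4 transmembrane and 3 other chains.

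Summed FPKM ran from 413167 to 468186 per library and genes at 1 FPKM or more from 11554 to 13184. No read counts come with FPKM, so the depth behind a value is unknown. Of 10 epididymis markers, which should be near 0 in a fat pad, chow KO replicate 2 held a sum of 13798 FPKM, HFD KO replicate 4 held 5444 and HFD KO replicate 2 held 341.5, while the remaining 13 libraries held 39.8 FPKM or less. The collagen counts below are therefore also given without those libraries. Nnt, a mitochondrial transhydrogenase gene that differs between mouse substrains, ranged from 25.7 to 29.2 FPKM in the chow WT libraries and did not pass 10.6 FPKM in any other, so in the WT-labelled diet comparison a trait of the chow WT mice and the diet cannot be told apart, and nor can that trait and the label on chow. The interaction of genotype label and diet also contains the chow WT libraries, so the same limit holds for it. The labels do not say whether mice of a group shared a litter or cage. The 10 fat-cell markers, Adipoq and Fabp4 among them, summed to 33319 to 35849 FPKM in chow WT, 17589 to 41564 in chow KO, 6598 to 19528 in HFD WT and 4268 to 15871 in HFD KO, and none was at 0.

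Collagen RNA as a whole was more abundant on HFD. Summed over the 44 chains, collagen was 1041, 1180, 1304 and 1069 FPKM in the 4 chow WT libraries (replicates 1 to 4) and 1083, 901.6, 889.7 and 1137 FPKM in the chow KO ones. Under HFD it was 3088, 2862, 2725 and 2532 FPKM in WT-labelled mice and 3900, 1550, 2934 and 1180 FPKM in KO-labelled mice. Each HFD library lay above all chow libraries of its own label, narrowly so for HFD KO replicate 4. Fibrillar chains were 39.4% ± 1.95 (SD, n = 4) of collagen FPKM in WT-labelled and 44.3% ± 3.32 in KO-labelled mice on chow, and 53.9% ± 12.5 and 57.2% ± 13.8 in the same order on HFD. The share of basement membrane chains went the other way, at 28.5% ± 2.72, 23.9% ± 8.42, 16.1% ± 5.16 and 15.2% ± 6.46 in that order, while collagen VI was at 20.1% ± 0.639, 18.7% ± 5.33, 20.6% ± 5.16 and 18.7% ± 5.17. Mean basement membrane FPKM itself did not fall on HFD, at 328, 241, 454 and 306 FPKM in the same order. The fibrillar share of HFD WT replicate 1 (37.6%) and HFD KO replicate 4 (41.2%) lay within the chow range of its own label. These shares are sums of per-length values and were not tested.

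**Figure D1:**
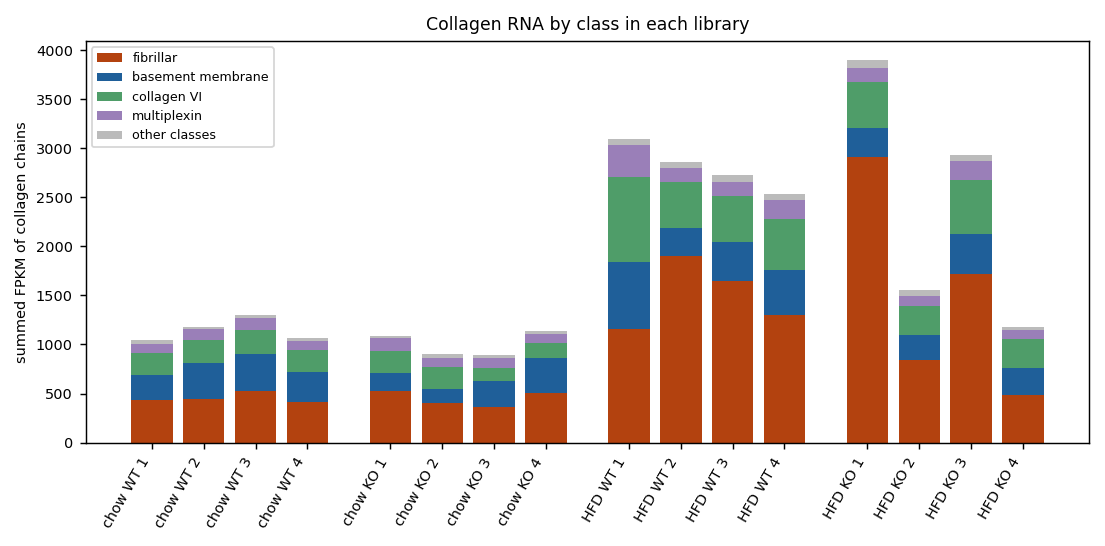
Summed FPKM of the collagen chains in each of the 16 libraries, stacked by class. The chow bars lie between 889.7 and 1304 FPKM, and the HFD KO bars spread from 1180 to 3900 FPKM, mostly through the fibrillar part.

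Of the 44 chains, 26 reached 1 FPKM in at least 4 libraries and were tested, and 18 did not. The untested 18 hold the cartilage chains Col2a1, Col11a1, Col11a2, Col9a1, Col9a2, Col9a3 and Col10a1, along with Col19a1, Col22a1, Col13a1, Col25a1, Col7a1 and Col26a1. Those 13 stayed under 1 FPKM in all 16 libraries. The other 5 passed it somewhere: Col24a1 peaked at 1.6 FPKM in HFD KO replicate 1, Col27a1 at 1.17 FPKM in HFD KO replicate 2, and 3 peaked in chow KO replicate 2, namely Col6a4 at 11.4 FPKM, Col4a3 at 2.54 FPKM and Col17a1 at 1.18 FPKM. Col6a4 was at most 0.23 FPKM in the other 15 libraries. Chow KO replicate 2 is also the library with the most epididymal RNA, and the part of that RNA in these peaks was not tested.

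Many of the tested chains rose on HFD, and with all 16 libraries none was called lower on the deposited scale (quantile normalization called 1 and 2 lower, named with the type IV chains below). Against chow, limma on log2(FPKM + 1) called 12 of 26 chains higher and 0 lower in WT-labelled mice, and 11 higher and 0 lower in KO-labelled mice. A chain was called where its Benjamini-Hochberg adjusted p, taken over 12667 genes, was under 0.05. Much of the transcriptome differed between the diet groups: 41.9% of all tested genes were called in WT-labelled mice (24.6% higher, 17.2% lower) and 38.9% in KO-labelled mice (23.5% higher, 15.3% lower). The median log2 difference of the 26 chains was 0.46 in WT-labelled and 0.60 in KO-labelled mice, beside 0.06 and 0.08 for all tested genes. Of the classes, fibrillar chains had 5 of 6 called higher under each label, collagen VI had 3 of 5 under each, and basement membrane chains had 0 of 5 under each. Without chow KO replicate 2 and HFD KO replicate 4, the chains called were 12 higher and 1 lower (WT-labelled) and 13 higher and 1 lower (KO-labelled), the lower chain being Col4a4. Without HFD KO replicate 2 as well, they were 12 and 14 higher with 3 lower under each label, namely Col4a4, Col4a6 and Col23a1. Calls over all genes rose too. With all 16 libraries they were 3121 higher and 2183 lower (WT-labelled) and 2979 and 1943 (KO-labelled) of 12667. Without the 2 libraries they were 3596 and 2550, and 3832 and 2395, of 12450. Without the 3 they were 3696 and 2682, and 3768 and 2530, of 12375. The 4 groups are bulk tissue, so more collagen-making cells and more collagen RNA per cell cannot be told apart.

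**Figure D2:**
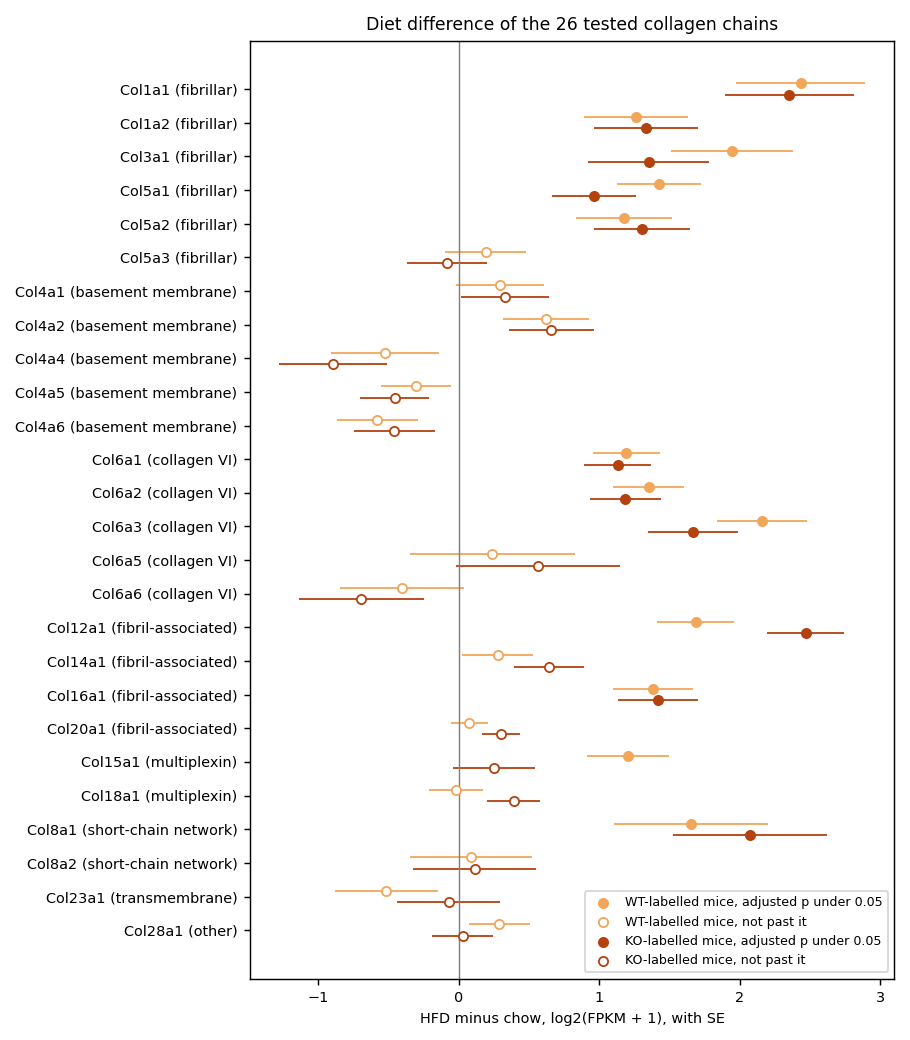
HFD minus chow on the log2(FPKM + 1) scale, with SE, for the 26 tested collagen chains by class and genotype label. The differences reach 2.43 for Col1a1 and 2.47 for Col12a1, and Col4a4, Col4a5, Col4a6, Col6a6 and Col23a1 lie left of 0 under both labels without passing the threshold.

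Among fibrillar chains, Col1a1 changed most. Col1a1 (Entrez 12842, chr11:94936224-94953042, build GRCm38.p6, plus strand) encodes the alpha 1 chain, of which a type I molecule usually holds a pair. Its FPKM was 56.5, 51.4, 71.3 and 49.6 in chow WT and 67.6, 70.2, 38.2 and 64.4 in chow KO. On HFD it was at 253, 409, 346 and 259.5 in WT and 837, 200.2, 469 and 107 in KO libraries. Every HFD library was above every chow library, and HFD KO held both the highest and the lowest of the HFD values. The log2 difference was 2.43 ± 0.46 (SE, adjusted p = 0.000929) in WT-labelled and 2.35 ± 0.46 (adjusted p = 0.00151) in KO-labelled mice by limma, and the group means differed 5.54-fold and 6.71-fold.

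Col1a2 (Entrez 12843, chr6:4504814-4541544, plus strand) encodes the partner chain, alpha 2. It stood at 108, 94.8, 128 and 98.4 FPKM in chow WT and 119.8, 99.2, 67.3 and 106 FPKM in chow KO. HFD libraries held 183, 345, 279.6 and 246 FPKM under the WT label and 559, 176, 311 and 113 FPKM under the KO label. The WT-labelled diets did not overlap, whereas HFD KO replicate 4 fell inside the chow KO range. Its log2 differences were 1.26 ± 0.37 (adjusted p = 0.0137) and 1.33 ± 0.37 (adjusted p = 0.0113) by limma.

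Col3a1 (Entrez 12825, chr1:45311538-45349706, plus strand), the single chain of type III collagen and a companion of type I in soft tissue, was the most abundant collagen RNA per length in all 8 HFD libraries. It was at 187, 179, 206 and 159 FPKM in chow WT and 243, 171, 164 and 221 FPKM in chow KO. With HFD the values were 484, 980.1, 850.5 and 611 FPKM for WT and 1296, 366, 732 and 187 FPKM for KO. Again HFD KO replicate 4 lay within the chow KO range and all HFD WT libraries lay above chow WT. The log2 differences were 1.95 ± 0.43 (adjusted p = 0.00268) and 1.35 ± 0.43 (adjusted p = 0.0228) by limma. The second call was lost without chow KO replicate 3, without HFD KO replicate 1 or without HFD KO replicate 3, with an adjusted p of up to 0.0733.

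Type V chains set the width of type I fibrils, and 2 of the 3 tested rose. Col5a1 (Entrez 12831, chr2:27886425-28039514) was at 21.4, 24.7, 27.4 and 24.1 FPKM in chow WT and 30.7, 20.9, 23.1 and 27.8 FPKM in chow KO. The HFD values were 93.9, 62.5, 59.3 and 57.7 FPKM in WT and 86.8, 33.9, 77.3 and 28.1 FPKM in KO libraries. HFD WT was clear of chow WT, while HFD KO replicate 4 lay inside the chow KO range. Its log2 differences were 1.43 ± 0.30 (adjusted p = 0.0018) and 0.96 ± 0.30 (adjusted p = 0.0192), and the second was no longer called without HFD KO replicate 1 or 3, with an adjusted p of up to 0.0690. Col5a2 (Entrez 12832, chr1:45374321-45503282), the gene next to Col3a1, was at 19.8, 22.9, 26.01 and 20.5 FPKM in chow WT and 44.2, 54.8, 61.0 and 47.0 FPKM in HFD WT. It was at 19.6, 12.01, 16.7 and 21.9 FPKM in chow KO and 88.2, 28.1, 68.1 and 21.5 FPKM in HFD KO, with replicate 4 just inside the chow range. The limma differences of Col5a2 were 1.18 ± 0.34 (adjusted p = 0.0131) and 1.31 ± 0.34 (adjusted p = 0.00803). The remaining type V chain, Col5a3, averaged 58.1 ± 12.3 FPKM (SD, n = 4) in chow WT and 44.5 ± 13.5 FPKM in chow KO, and 68.8 ± 26.7 and 41.7 ± 12.2 FPKM on HFD, and was not called (log2 0.19, adjusted p = 0.617; log2 -0.08, adjusted p = 0.845). When only the groups compared were fitted, the KO-labelled calls of Col1a2, Col3a1, Col5a1 and Col5a2 were lost. KO-labelled calls over all genes fell under that fit as well, from 2979 higher and 1943 lower to 2168 and 1256.

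**Figure D3:**
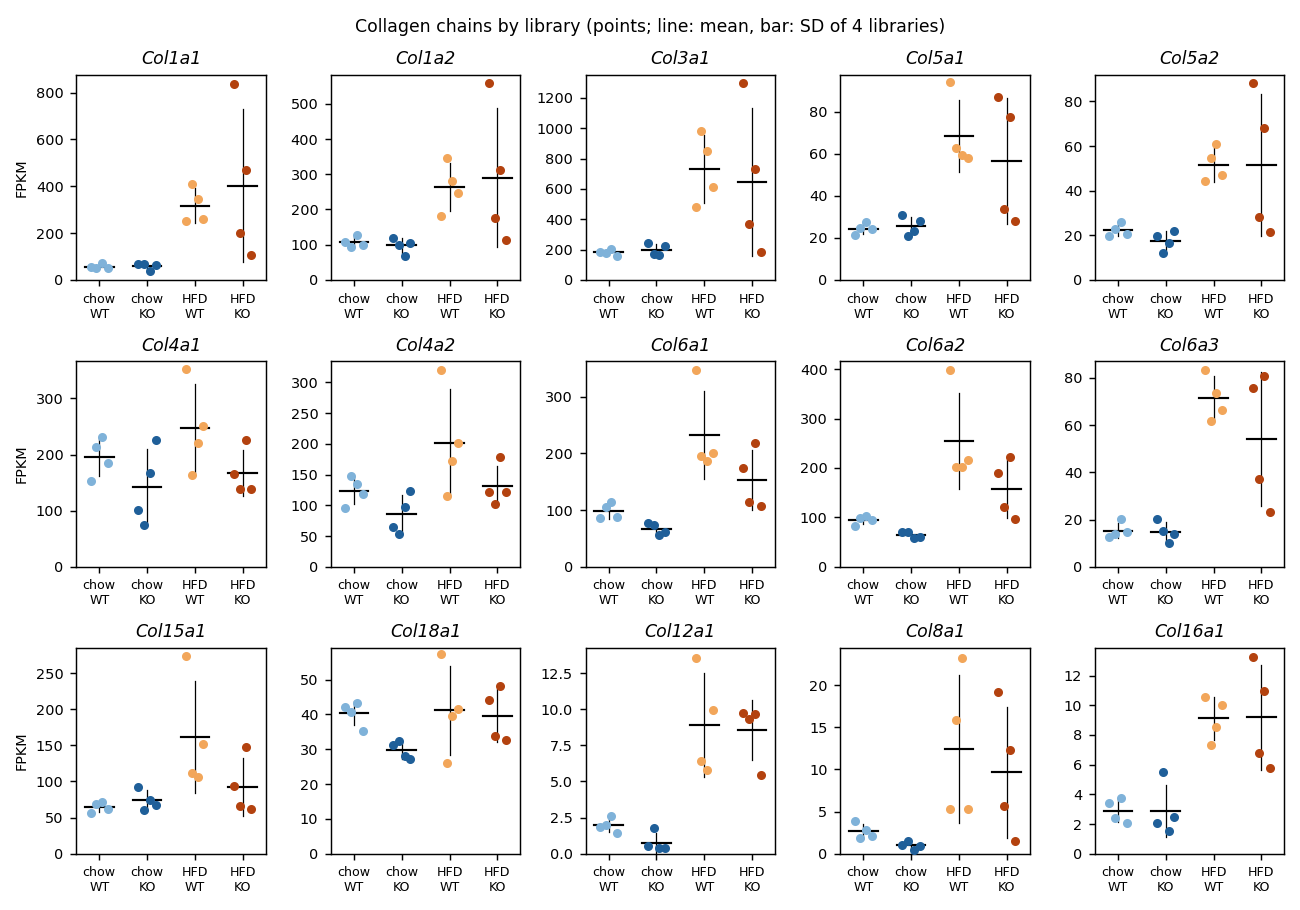
FPKM of the 15 collagen chains described by library, 4 points per group, with the group mean as a line and the SD as a bar. In the Col1a1 panel the chow points reach 71.3 FPKM and the HFD points start at 107 FPKM, and in the Col4a1 panel the 4 groups overlap.

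Promoter sequence is shown for a pair of the fibrillar genes that rose together and, further on, for Col6a3, and no value here measures binding to it. RefSeq promoter windows (GRCm38.p6, 250 bases before to 50 after a start site) were found for 35 of the 44 chains, and both strands were searched for 3 motifs, none of which contains another. The GC box GGGCGG was in the windows of 22 of those 35 genes and in 35.7% of all 32851 windows. The CCAAT box CCAAT was in 13 of 35 genes and 37.4% of windows, and the TATA box TATAAA in 5 of 35 and 13.6%. A match is only a match of letters. Col1a2 held CCAAT at -109 from its RefSeq start, shown in capitals within chr6:4505494-4505523 (plus strand), and Col3a1 held TATAAA at -117, shown in capitals within chr1:45311388-45311537 (plus strand). The RefSeq start used for Col1a2, at 4505618, lies inside the annotated gene, which begins at 4504814, and the stretch printed for it overlaps an annotated Col1a2 exon.
Col1a2: tcaaaaagaatggaaCCAATttaagaagcc
Col3a1: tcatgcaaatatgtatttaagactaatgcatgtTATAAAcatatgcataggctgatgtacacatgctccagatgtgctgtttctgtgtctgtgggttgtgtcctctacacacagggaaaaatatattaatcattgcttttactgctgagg

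Col4a1 (Entrez 12826) and Col4a2 (Entrez 12827), which assemble into the common type IV network, had no call in either diet comparison. Their genes sit head to head at chr8:11198423-11312826 (minus strand) and chr8:11312805-11449287 (plus strand), so their annotated first exons overlap. The plus-strand sequence at chr8:11312801-11312830 is printed to show how close the starts are: capitals run from the Col4a2 start at 11312805 to the Col4a1 start at 11312826, and they include a GC box.
Col4a1 and Col4a2: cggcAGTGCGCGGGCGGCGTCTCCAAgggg

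Col4a1 was at 153, 214, 230.5 and 186 FPKM in chow WT and 100.7, 74.2, 167 and 226 FPKM in chow KO. Mice on HFD had 352, 164, 221 and 250.2 FPKM under the WT label and 165, 138, 225 and 139 FPKM under the KO label. The diets overlapped under both labels, and the chow KO libraries alone ran from 74.2 to 226 FPKM. The log2 differences of Col4a1 were 0.30 ± 0.31 (adjusted p = 0.468) and 0.33 ± 0.31 (adjusted p = 0.421) by limma. Col4a2 was at 95.0, 147, 135 and 119 FPKM in chow WT and 65.2, 53.5, 97.8 and 123.9 FPKM in chow KO. On HFD it was at 321, 115, 172 and 201 FPKM in WT and 122, 101.4, 179 and 122 FPKM in KO libraries. It too overlapped between diets, with log2 differences of 0.62 ± 0.30 (adjusted p = 0.112) and 0.66 ± 0.30 (adjusted p = 0.0974). Col4a2 was called without HFD WT replicate 2 in WT-labelled mice (0.86) and without chow KO replicate 4 in KO-labelled mice (0.86).

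The minor type IV chains are less abundant and make the networks of specialised basement membranes such as those of the kidney. All 3 that were tested had negative diet differences that did not pass the threshold. Col4a4 had log2 differences of -0.52 (adjusted p = 0.294) and -0.89 (adjusted p = 0.0792), and it was highest in chow KO replicate 2, at 6.11 FPKM against at most 2.43 FPKM elsewhere. Col4a5 had -0.30 (adjusted p = 0.344) and -0.45 (adjusted p = 0.159). For Col4a6 the chow WT libraries (2.34, 1.46, 1.72 and 1.75 FPKM) all lay above the HFD WT ones (1.03, 0.85, 0.45 and 1.27 FPKM), with a log2 difference of -0.58 (adjusted p = 0.121), while in KO-labelled mice it was -0.46 (adjusted p = 0.225). Quantile normalization called Col4a6 lower in WT-labelled mice and Col4a4 and Col4a5 lower in KO-labelled mice. Without the 3 libraries with epididymal genes, Col4a4 and Col4a6 were called lower on HFD under each label: Col4a4 at log2 -0.52 (adjusted p = 0.0275) in WT-labelled and -1.05 (adjusted p = 0.00277) in KO-labelled mice, and Col4a6 at -0.58 (adjusted p = 0.0341) and -0.93 (adjusted p = 0.0124).

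Collagen VI is built from the alpha 1 and alpha 2 chains, encoded by Col6a1 and Col6a2, with a longer partner chain. All 3 classical chains rose on HFD under both labels without overlap. The share of all tested genes without overlap between the diets is not given here, so the separation cannot be called particular to these chains. Col6a1 (Entrez 12833, chr10:76708792-76726168, minus strand) was at 85.4, 106, 114 and 87.7 FPKM in chow WT and 77.7, 73.5, 55.6 and 61.3 FPKM in chow KO. HFD libraries held 348, 195, 187 and 201 FPKM under the WT label and 175, 114, 218 and 108 FPKM under the KO label. HFD WT replicate 1 stood well above the rest of its group. Its log2 differences were 1.19 ± 0.24 (adjusted p = 0.00135) and 1.13 ± 0.24 (adjusted p = 0.00232) by limma. Col6a2 (Entrez 12834, chr10:76595762-76623630, minus strand), which lies beside Col6a1, was at 82.2, 98.6, 103 and 95.2 FPKM in chow WT and 70.2, 71.0, 59.3 and 60.2 FPKM in chow KO. With HFD the values were 399, 202, 201 and 216 FPKM for WT and 190.2, 122, 222 and 95.9 FPKM for KO. It followed Col6a1 library by library, with differences of 1.35 ± 0.25 (adjusted p = 0.000863) and 1.19 ± 0.25 (adjusted p = 0.00249).

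Col6a3 (Entrez 12835, chr1:90765923-90843971, minus strand), which encodes the usual partner and is the source of the cleaved peptide endotrophin, was the least abundant per length of the 3 and rose the most. It was at 12.7, 13.9, 20.1 and 14.6 FPKM in chow WT and 20.2, 15.2, 10.1 and 13.7 FPKM in chow KO. The HFD values were 83.3, 61.8, 73.5 and 66.4 FPKM in WT and 75.9, 37.1, 80.7 and 23.0 FPKM in KO libraries. The diets did not overlap, although HFD KO replicate 4 came close to chow KO replicate 1. The log2 differences were 2.16 ± 0.32 (adjusted p = 0.000182) and 1.67 ± 0.32 (adjusted p = 0.00138) by limma, or 4.65-fold and 3.66-fold between group means. The 150 bases before its start (chr1:90843972-90844121, minus strand), shown beside the fibrillar windows above because Col6a3 rose with them, have no match to the 3 motifs.
Col6a3: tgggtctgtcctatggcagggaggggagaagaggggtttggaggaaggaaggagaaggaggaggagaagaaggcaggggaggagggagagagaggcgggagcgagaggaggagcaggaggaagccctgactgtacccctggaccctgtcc

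The chains that can stand in for Col6a3 were not called. Col6a5 averaged 16.04 ± 8.84 FPKM (SD, n = 4) in chow WT and 27.3 ± 21 FPKM in chow KO, and 19.96 ± 11.9 and 33.3 ± 17.2 FPKM on HFD, with log2 differences by diet of 0.24 (adjusted p = 0.768) and 0.56 (adjusted p = 0.468). Col6a6 averaged 5.47 ± 1.41, 8.63 ± 4.96, 4.78 ± 3.74 and 4.46 ± 1.4 FPKM in that order, with -0.40 (adjusted p = 0.491) and -0.69 (adjusted p = 0.230). Their spread between mice of a group was wide next to these differences.

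Outside the 3 main classes, the fibril-associated chains, which decorate fibrils, had 2 of 4 called higher under each label. Col12a1 (Entrez 12816) was at 1.84, 1.96, 2.64 and 1.44 FPKM in chow WT and 0.50, 1.79, 0.39 and 0.38 FPKM in chow KO. Mice on HFD had 13.6, 6.41, 5.80 and 9.95 FPKM under the WT label and 9.77, 9.31, 9.65 and 5.43 FPKM under the KO label. All HFD libraries lay above all chow ones, and the log2 differences were 1.69 ± 0.27 (adjusted p = 0.000347) and 2.47 ± 0.27 (adjusted p = 4.12e-05) by limma. Col16a1 (Entrez 107581) was at 3.43, 2.43, 3.72 and 2.05 FPKM in chow WT and 2.06, 5.48, 1.53 and 2.47 FPKM in chow KO. On HFD it was at 10.6, 7.33, 8.57 and 10.04 FPKM in WT and 13.2, 6.77, 10.97 and 5.76 FPKM in KO libraries. Its groups were also separate, with 1.38 ± 0.28 (adjusted p = 0.00155) and 1.42 ± 0.28 (adjusted p = 0.0017). Col14a1 (0.28, adjusted p = 0.396; 0.64, adjusted p = 0.0549) and Col20a1 (0.08, adjusted p = 0.674; 0.30, adjusted p = 0.0860) were not called.

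The multiplexins Col15a1 and Col18a1 sit at basement membranes and carry the fragments restin and endostatin. Col15a1 (Entrez 12819) was at 56.2, 68.3, 71.9 and 61.3 FPKM in chow WT and 93.0, 60.5, 73.7 and 67.6 FPKM in chow KO. HFD libraries held 274, 112, 107 and 152 FPKM under the WT label and 93.6, 66.6, 148 and 61.3 FPKM under the KO label. HFD WT was clear of chow WT and HFD KO overlapped chow KO. The log2 difference was 1.21 ± 0.29 (adjusted p = 0.00469) in WT-labelled and 0.25 ± 0.29 (adjusted p = 0.524) in KO-labelled mice, but the interaction that tests their difference was not called (-0.96 ± 0.42, adjusted p = 0.440). Col18a1 (Entrez 12822) was at 42.0, 40.7, 43.3 and 35.4 FPKM in chow WT and 31.3, 32.5, 28.0 and 27.1 FPKM in chow KO. With HFD the values were 57.5, 26.1, 39.6 and 41.5 FPKM for WT and 44.0, 33.9, 48.2 and 32.7 FPKM for KO. Only the KO-labelled diets were separate, and neither difference was called (-0.02, adjusted p = 0.947; 0.39, adjusted p = 0.114).

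Col8a1 (Entrez 12837), a short-chain network collagen of vessel walls, was at 3.86, 1.89, 2.83 and 2.08 FPKM in chow WT and 1.06, 1.45, 0.43 and 0.97 FPKM in chow KO. The HFD values were 5.35, 15.9, 23.2 and 5.26 FPKM in WT and 19.2, 5.67, 12.3 and 1.49 FPKM in KO libraries. The diets did not overlap under either label, though HFD KO replicate 4 was barely above chow KO replicate 2. Its differences were 1.65 ± 0.55 (adjusted p = 0.0257) and 2.07 ± 0.55 (adjusted p = 0.0087) by limma, and the first was lost without chow WT replicate 2 or 4 or without HFD WT replicate 2 or 3, with an adjusted p of up to 0.0912. Col8a2 (0.09 and 0.12), the transmembrane Col23a1 (-0.51 and -0.07) and Col28a1 (0.29 and 0.03) were not called, with adjusted p from 0.279 to 0.931. Col8a2 peaked in chow KO replicate 2, the library with the most epididymal RNA, at 6.88 FPKM against at most 1.9 FPKM in any other library.

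Chains of a collagen assemble in fixed proportions, so FPKM ratios within a library were compared, which a scaling factor for the whole library does not change. For 9 ratios and 2 factors, 18 two-sided exact permutation tests were run on log2 ratios, permuting diet within genotype label or label within diet. The smallest p that 4900 permutations allow is 0.000408, and adjusted values are Benjamini-Hochberg over the 18. Col1a1 to Col1a2 was 0.524, 0.542, 0.559 and 0.504 in chow WT and 0.564, 0.708, 0.568 and 0.610 in chow KO. Mice on HFD had 1.38, 1.18, 1.24 and 1.05 under the WT label and 1.5, 1.13, 1.51 and 0.945 under the KO label. All 8 HFD libraries lay above all 8 chow ones, including HFD KO replicate 4, which had lain within the chow range for Col1a2 itself. The mean log2 ratio differed by 1.11 (1.18 in WT-labelled, 1.03 in KO-labelled mice; exact p = 0.000408, adjusted p = 0.00245).

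Col3a1 to Col1a1 moved the other way. It was 2.89 to 3.49 in chow WT and 2.44 to 4.29 in chow KO, against 1.91 to 2.46 in HFD WT and 1.55 to 1.83 in HFD KO, with no overlap within a label (log2 -0.76, exact p = 0.000408, adjusted p = 0.00245). Per unit of Col3a1, HFD libraries thus held more Col1a1. Col4a1 to Col4a2, the head-to-head pair, was 1.45 to 1.71 in chow WT and 1.39 to 1.82 in chow KO, against 1.10 to 1.42 in HFD WT and 1.13 to 1.36 in HFD KO, again separate within each label. This log2 difference was small, at -0.33 in WT-labelled and -0.34 in KO-labelled mice, but it passed the test (exact p = 0.000408, adjusted p = 0.00245) where neither chain alone did.

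In collagen VI, Col6a3 to Col6a1 was 0.149, 0.131, 0.176 and 0.166 in chow WT and 0.260, 0.207, 0.181 and 0.223 in chow KO. On HFD it was at 0.239, 0.317, 0.393 and 0.330 in WT and 0.434, 0.327, 0.370 and 0.214 in KO libraries. Libraries on HFD held more Col6a3 per Col6a1, with overlap in KO-labelled mice through replicate 4 (log2 0.81, exact p = 0.00122, adjusted p = 0.00367). Col6a1 to Col6a2 stayed between 0.872 and 1.12 in all 16 libraries (log2 -0.11, exact p = 0.0657, adjusted p = 0.148), and Col5a1 to Col5a2 also missed the threshold (log2 -0.06, exact p = 0.764).

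**Figure D4:**
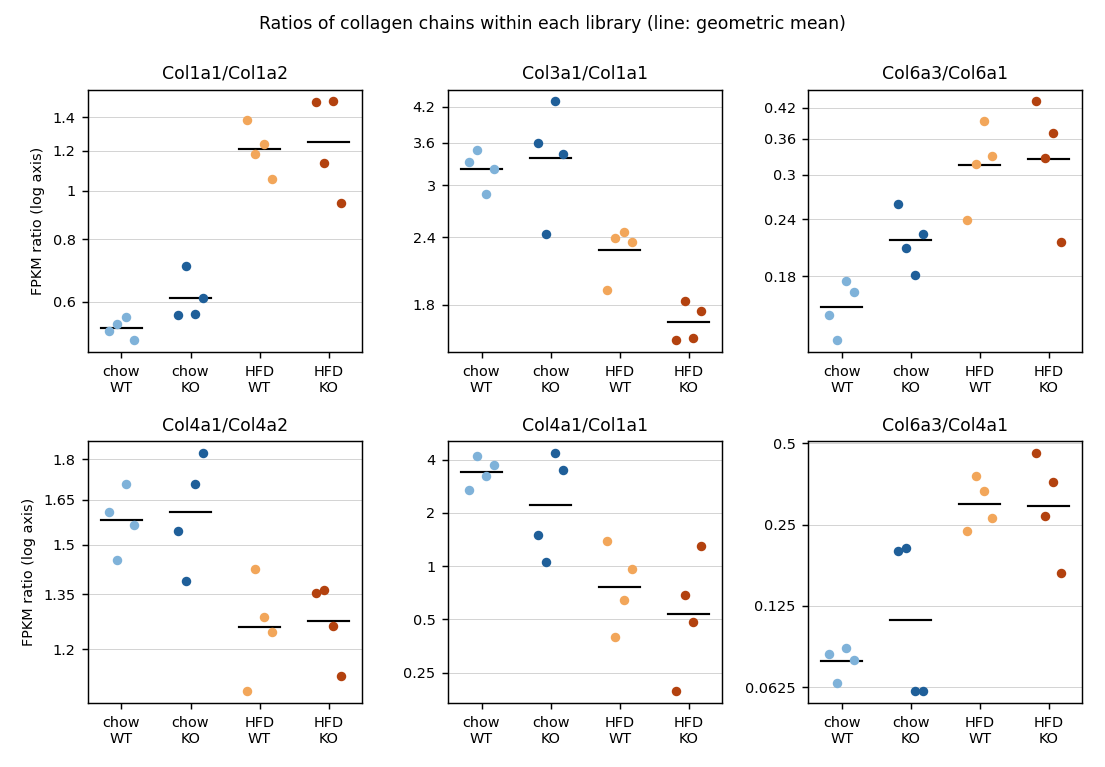
Ratios of FPKM between collagen chains within each library, 4 points per group on a log axis, with the geometric mean as a line. Col1a1/Col1a2 is at most 0.708 on chow and at least 0.945 on HFD, and Col4a1/Col1a1 falls from between 1.06 and 4.37 on chow to between 0.197 and 1.39 on HFD.

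Ratios between classes compare how the 3 main classes moved. Col4a1 to Col1a1 was 2.71, 4.16, 3.23 and 3.75 in chow WT and 1.49, 1.06, 4.37 and 3.51 in chow KO. HFD libraries held 1.39, 0.400, 0.640 and 0.964 under the WT label and 0.197, 0.690, 0.481 and 1.30 under the KO label. The basement membrane chain fell relative to the fibrillar one by 2.10 on the log2 scale (exact p = 0.000816, adjusted p = 0.00367), with overlap in KO-labelled mice. Col6a3 to Col4a1 rose by 1.67 (exact p = 0.00122, adjusted p = 0.00367). Col6a3 to Col1a1 differed by -0.43 and missed the threshold (exact p = 0.0367, adjusted p = 0.0945), which it passed without HFD WT replicate 1 (adjusted p = 0.0115) or HFD KO replicate 4 (adjusted p = 0.0441). Leaving out the 2 or 3 libraries with epididymal genes kept the 6 ratios that passed by diet past the threshold, with Col4a1 to Col1a1 at -2.49 and -2.68. Col6a1 to Col6a2 by diet also passed without the 2 libraries (log2 -0.14, adjusted p = 0.0418) but not without the 3 (adjusted p = 0.0643).

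With all 16 libraries fitted, no chain was called by genotype label. On chow, limma called 0 of 26 chains between KO-labelled and WT-labelled mice (smallest adjusted p = 0.194, 3 at an unadjusted p under 0.05), beside 1.41% of all tested genes. On HFD it called 0 of 26 (smallest adjusted p = 0.348, 4 at an unadjusted p under 0.05), beside 0.0316% of all tested genes. For the interaction it called 0 of 26 (smallest adjusted p = 0.440, 1 at an unadjusted p under 0.05), beside 0.292% of all. These shares are of genes called at the adjusted threshold. At an unadjusted p under 0.05 by limma, 1861 of all 12667 tested genes passed on chow, 1500 on HFD and 1284 for the interaction. The unadjusted counts of chains are to be read beside those. Of the 26 differences, 12 were positive on chow and 8 on HFD, with medians of -0.05 and -0.07 beside 0.09 and 0.09 for all tested genes. Abundant chains stood on both sides on chow, where Col3a1 had 0.11 and Col15a1 0.18. On HFD the 12 abundant chains were all lower in KO-labelled mice, from -0.02 for Col18a1 to -0.78 for Col15a1 (adjusted p = 0.356 by limma), and none was called. The KO minus WT log2 difference of Col6a1 was -0.55 (adjusted p = 0.304) with chow and -0.61 (adjusted p = 0.362) with HFD, and every chow KO library lay below every chow WT one. Summed smooth muscle and pericyte markers were also separate on chow, at 173 to 431 FPKM in WT and 117 to 147 FPKM in KO libraries, with 1 of 8 called lower (Acta2, smooth muscle actin, adjusted p = 0.0352), and their part in the collagen VI values was not tested. Col6a2 had -0.53 (adjusted p = 0.345) and -0.70 (adjusted p = 0.348), also with no overlap on chow, and the chow difference was called when only the chow groups were fitted. Col18a1 (-0.43, adjusted p = 0.314) and Col8a1 (-0.89, adjusted p = 0.487) did not overlap on chow either. The separation on chow was thus not limited to collagen VI, and the share of all tested genes without overlap is not given here. Col4a1 had -0.57 (adjusted p = 0.422) and -0.54 (adjusted p = 0.490), and Col4a2 -0.59 (adjusted p = 0.389) and -0.56 (adjusted p = 0.470), with overlap on both diets. Col1a1 had 0.05 (adjusted p = 0.977) and -0.03 (adjusted p = 0.985). Col12a1 had the smallest p on chow (-0.80 ± 0.27, adjusted p = 0.194), and without the 2 or the 3 libraries with epididymal genes it was called lower (log2 -1.05, adjusted p = 0.0403 and 0.0376). With all 16 libraries none of the 9 ratios passed the test by label (adjusted p from 0.217 to 0.764). Col6a3 to Col6a1 was higher in KO-labelled mice without the 2 or the 3 libraries with epididymal genes (log2 0.38, exact permutation test, adjusted p = 0.0418; log2 0.43, adjusted p = 0.0343) and without HFD KO replicate 4 alone (log2 0.37, adjusted p = 0.0248). Col1a1 to Col1a2 was higher without the 3 libraries (log2 0.22, adjusted p = 0.0098).

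Many genes that process collagen were also called higher, as counted in 7 lists of collagen biology and to be read beside the shares of all genes given above. Of 13 tested genes of hydroxylation and glycosylation, 5 were called higher on HFD in WT-labelled and 8 in KO-labelled mice, with 0 lower. Colgalt1, which puts galactose on hydroxylysine, rose by 1.5 ± 0.19 (adjusted p = 6.46e-05) and 1.48 ± 0.19 (adjusted p = 0.000112), and the lysyl hydroxylases Plod1 (1.07 and 1.17) and Plod2 (1.18 and 1.59) and the prolyl 3-hydroxylase P3h1 (0.88 and 0.78) also rose. For folding and export, 3 of 7 were called higher under each label: the collagen chaperone Serpinh1 (1.63 and 0.77) and the transcription factor Creb3l1 (1.34 and 1.14) under both, with Tmem38b (0.67) in WT-labelled and Fkbp10 (1.46) in KO-labelled mice. Of 5 genes of procollagen cleavage, 4 rose under each label, with the enhancer Pcolce at 1.82 and 1.8 and the proteases Adamts2 (0.65 and 1.06), Adamts14 (1.01 and 1.05) and Bmp1 (0.72 and 1.07).

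Cross-linking enzymes, which join lysines of neighbouring chains, had 3 of 6 higher in WT-labelled mice (Loxl2 1.39, Loxl1 1.0, Loxl4 0.49) and 4 of 6 in KO-labelled mice (Lox 1.39, Loxl1 1.01, Loxl2 1.10, Loxl3 0.89). Enzymes that break collagen rose too, 4 of 5 under each label. Ctsk, the lysosomal collagen-cutting protease cathepsin K, rose by 3.87 ± 0.35 (adjusted p = 4.59e-06) and 3.52 ± 0.35 (adjusted p = 1.82e-05), with Mmp2 (1.57 and 1.57), Mmp14 (1.31 and 1.54) and Mmp13 (1.62 and 1.82). Receptors and uptake had 5 and 6 of 11 higher, led by the endocytic collagen receptor Mrc2 (3.11 and 2.89) and the inhibitory leukocyte receptor Lair1 (2.73 and 2.14).

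Proteins that bind collagen split. Of 12 tested, 2 were higher and 4 lower in WT-labelled mice, and 3 higher and 1 lower in KO-labelled mice. Lumican (Lum, 1.6 and 0.91) and biglycan (Bgn, 1.03 and 1.56), which coat fibrils, rose, whereas osteoglycin (Ogn, -1.36 and -0.88) fell under both labels. Dermatopontin (Dpt, -1.17) and decorin (Dcn, -0.79) fell in WT-labelled mice. The interaction and the genotype comparisons called 0 genes of these 7 lists.

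Other cell types moved with the diet, and their part in the collagen values was not tested. Of 10 fat-cell markers, 7 fell in WT-labelled and 8 in KO-labelled mice, and of 10 macrophage markers 9 and 10 rose. Summed macrophage markers were 1163 to 1275 FPKM in chow WT, 907 to 1120 FPKM in chow KO, 2114 to 10037 FPKM in HFD WT and 2985 to 9386 FPKM in HFD KO. Fibroblast markers summed to 366 to 524, 418 to 482, 334 to 614 and 389 to 619 FPKM in the same order, with 2 of 10 higher and 1 lower in WT-labelled mice and 2 higher in KO-labelled mice. Endothelial markers summed to 114 to 190.5, 74.2 to 169, 67.4 to 238 and 96.2 to 150.4 FPKM, with 0 and 1 of 10 called. Smooth muscle and pericyte markers summed to 173 to 431, 117 to 147, 103 to 356 and 148 to 1695 FPKM, with 1 and 3 of 8 called higher, and HFD KO replicate 2 held the 1695 FPKM. Mesothelial markers summed to 50.5 to 128, 52.4 to 336, 29.7 to 49.9 and 39.8 to 348 FPKM, with 4 and 3 of 8 called lower. Of 6 Schwann cell markers 2 were tested and 0 called. No fat-cell, fibroblast, endothelial or macrophage marker was at 0 in any library.

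Within HFD, fibrillar and basement membrane sums ranked the mice differently. Fibrillar chains summed to 2914, 842, 1717 and 487 FPKM in HFD KO replicates 1 to 4, where macrophage markers were 9386, 5393, 7440 and 2985 FPKM, the same order of libraries. In HFD WT the fibrillar sums were 1162, 1899, 1647 and 1297 FPKM beside macrophage sums of 2114, 8067, 10037 and 4612 FPKM, the same order but for replicates 2 and 3. In chow WT the order was not shared, with fibrillar sums of 434, 439, 525 and 411 FPKM beside macrophage sums of 1275, 1240, 1163 and 1197 FPKM. In chow KO it was shared but for replicates 1 and 4, at 523, 402, 358 and 501 FPKM beside 985, 932, 907 and 1120 FPKM. Fibroblast markers did not share the fibrillar order on HFD, at 334, 594, 413 and 614 FPKM in WT and 427, 619, 405 and 389 FPKM in KO libraries. Basement membrane chains had the order of the endothelial markers on HFD only: in HFD WT they summed to 679, 283, 396 and 459 FPKM beside endothelial sums of 238, 67.4, 86.8 and 181 FPKM. In HFD KO they summed to 291, 250.5, 409 and 273 FPKM beside 138, 96.2, 150.4 and 113 FPKM. In the chow WT libraries the order was reversed, at 258, 369, 374 and 312 FPKM beside 190.5, 118, 114 and 138 FPKM. The chow KO ones did not share it either, at 183, 148, 272 and 361 FPKM beside 133, 103.8, 74.2 and 169 FPKM. Fat-cell sums in HFD WT, at 19528, 8104, 6598 and 13476 FPKM, had the basement membrane order but for replicates 2 and 3. In HFD KO they did not, at 4268, 8605, 8866 and 15871 FPKM. None of these orders was tested. HFD WT replicate 1, the library with the most Col4a1, Col6a1, Col6a2 and Col15a1, had the lowest macrophage sum of its group and the highest fat-cell sum.

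Some reads could belong to a neighbour. The sources used here do not give the strand of the libraries, and exons of Col4a1 and Col4a2 overlap each other, while Col5a1, Col15a1 and Col6a6 overlap predicted genes on the opposite strand and Col3a1 overlaps the predicted gene Gm47302 on its own strand.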

How the data were processed

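RNA was taken with TRIzol from eWAT, made into libraries with an MGIEasy kit and read as paired ends on a BGI-seq instrument, per the labels' protocols. The submitters' processing notes name STAR 2.7 and the builds GRCm38.p6 and mm10. The authors deposited FPKM values, scaled to transcript length and library size and rounded to 2 decimals, and the sources used here do not name the tool that made them. Depth is unknown, so no counting interval is given. The table's 14408 circular RNA entries and 1 blank entry were not used, and 26 symbols turned into dates were restored from the gene number.

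Genes at 1 FPKM or more in at least 4 of 16 libraries (12667 of 20101) were tested on log2(FPKM + 1), with a pseudocount of 1, in limma 3.58.1 (R 4.3.3): 4 group means, all 16 libraries, a variance trend, 5 comparisons, Benjamini-Hochberg adjustment over all genes. This scale understates changes of low genes. The limma p-values rest on 1 spread per gene, pooled over the mice of all 4 groups, so they do not measure the spread of a single group. Spreads were unequal: the SD of Col1a1 was 9.84 FPKM in chow WT and 328 FPKM in HFD KO. Ratios of chains used log2 FPKM without a pseudocount and exact permutation tests. Both procedures were tested on simulated data.

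Per-library values are given for the 12 abundant chains and for up to 3 further chains with the largest change in each diet comparison. From each other list up to 4 genes with the smallest p were named. Members, lists and tests were chosen with earlier results of these data known. Positions are from GENCODE and promoters from RefSeq, both GRCm38.p6. Proteins were not analysed here. Alternatives were other scalings, pseudocounts, filters, a replicate block, no variance trend, only the groups compared, other thresholds, and leaving out each library or the 2 or 3 with epididymal genes.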

Additional observations from a re-analysis of the deposited data

Results flagged for a closer look

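In 96 groups of 4 libraries, made from 24 measures (15 chains and 9 ratios) in 4 groups, 5 had a highest or lowest library far from the others. Chance alone gives about 1 in 20, so the count of flags is about what chance would give. HFD WT replicate 1 was far above its group for 3 chains: Col5a1 at 93.9 FPKM, Col6a1 at 348 FPKM and Col6a2 at 399 FPKM. Col12a1 stood apart in both KO-labelled groups, where chow KO replicate 2 was far above its group at 1.79 FPKM and HFD KO replicate 4 far below its group at 5.43 FPKM. Both of the latter libraries hold epididymal genes.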

How the results depend on the processing

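The count of chains called by diet stayed within 1.5 times its value under every alternative in WT-labelled mice (12 to 15, and 11 to 12 with 1 library left out). In KO-labelled mice the count of 11 became 7 when only the groups compared were fitted, losing Col1a2, Col3a1, Col5a1 and Col5a2. It became 17 without the 3 libraries with epididymal genes, and leaving out 1 library gave 9 to 13. All-gene calls in KO-labelled mice moved the same way, from 2979 higher and 1943 lower to 2168 and 1256 with only the groups compared. Without the 3 libraries they were 3768 and 2530 of 12375 genes, so these changes in count do not single out the collagen chains. Between labels on chow the count of 0 became 1 with only the groups compared (Col6a2) and 1 without the 2 or the 3 libraries with epididymal genes (Col12a1 in both). Of the ratios between classes, Col6a3 to Col1a1 by diet passed the threshold under quantile normalization (-0.53) and without HFD WT replicate 1 or HFD KO replicate 4, and leaving out 1 library gave -0.52 to -0.30. Col6a1 to Col6a2 by diet (-0.14) and Col6a3 to Col6a1 by label (0.37) also passed without HFD KO replicate 4. Signs changed only for values that were not called: Col18a1 by diet in WT-labelled mice (0.063 at a constant sum, and -0.19 to 0.18 with 1 library left out), Col15a1 by diet in KO-labelled mice (-0.0034 to 0.41 with 1 left out), Col6a3 between labels on HFD (0.14 without the 3 libraries) and on chow (-0.22 to 0.092 with 1 left out), Col4a1 to Col4a2 between labels (-0.012 to 0.056) and Col5a1 to Col5a2 by diet (-0.17 to 0.015). Quantile normalization moved the median of all genes by diet from 0.06 to -0.04 (WT-labelled) and 0.08 to -0.07 (KO-labelled), and all-gene calls from 3121 higher and 2183 lower to 2493 and 2953, and from 2979 and 1943 to 2279 and 3105. Median-of-ratios scaling gave 2579 and 2612 in KO-labelled mice. The chains called higher were 12 and 11 under both scalings. The cause was not tested.

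Deviations of same-numbered libraries had correlations of -0.630 to 0.367, which are of mixed sign and cannot settle whether the numbers pair the mice. With the replicate number as a block the chains called by diet were still 12 and 11 and by label 0 and 0. FPKM without counts limits what can be said of the 18 chains under the filter.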
